A study of Mus musculus with 6 samples.

Results

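Interferon-stimulated genes are described here in mouse epidermis after treatment with AKBA gel or control gel. The members were 36 genes known to be induced by interferon, named by symbol, and each had 1 row in the deposited table and at least 10 counts over the 6 libraries. They are 36 of the 47729 genes with a row and 36 of the 17023 genes that passed the low-count filter, so no member was lost to it. AKBA commonly stands for an acetylated keto-boswellic acid, one of the triterpenoids in frankincense resin, although the labels give only the letters. The AKBA group held 3 libraries from skin that received a gel with AKBA, and the control group held 3 libraries from skin that received a gel without it. All 6 came from wild type mice of the C57BL/6 background, and Dispase II, a protease, was used to lift the epidermis off the dermis. Control libraries are described by the letters IMQ with a number, with no explanation of the letters, so a further treatment of the skin in either group is unknown here. The labels used here state no age, dose or duration. They also do not say that replicates were different mice, and the p-values therefore reflect the spread among the 6 libraries alone, which may be technical.

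Type I interferons (interferon-α, -β and, in keratinocytes, -κ) and type III interferons (interferon-λ) bind their receptors and, through the kinases JAK1 and TYK2, activate STAT2. With IRF9 it takes part in a complex that binds the interferon-stimulated response element (ISRE) in the promoters of many genes. Their products sense foreign nucleic acid, cut or trap viral RNA, modify proteins with ISG15 and feed back on the pathway. In skin, keratinocytes, macrophages and dendritic cells all express such genes, and their level is known to rise in viral infection, lupus and psoriasis.

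The libraries held 19066045 to 22760432 counts, and 3 counts corresponded to 0.132 to 0.157 CPM (counts scaled to library size, the usual unit of bulk RNA sequencing, adjusted between libraries by the trimmed mean of M-values). The 36 members together took 7373 to 11244 counts of a library, the most in control replicate 1. Of 6 keratinocyte markers all were tested, at a summed 42441 to 67626 CPM, and fibroblast markers stood at a summed 18736 to 35250 CPM, so genes of dermal cells were also measured in the tissue labelled epidermis. In bulk tissue fewer cells of a type and less RNA per cell cannot be told apart. Control replicate 1 stood apart in the interferon-stimulated genes. It was the highest of the 6 libraries for 29 of the 36 members, and for 12.3% of all genes tested. The values of the members without this library are given after the account of their roles.

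The interferon-stimulated genes lay mostly below the control level under AKBA gel, by small amounts, and no member passed the test by edgeR. The log2 fold change (AKBA gel over control gel) was below 0 for 30 of the 36 members, against 49.6% of all genes tested. Its median was -0.39 over the members and 0.00 over all genes tested, and it ran from -0.99 for Oas2 to 0.57 for Ifi27l2a. Without control replicate 1 the median was -0.11 over the members and 0.01 over all genes tested, and 20 of the 36 members were below 0. For 11 members the 3 AKBA values were all below the 3 control values, against 9.1% of all genes tested, and for 0 members they were all above (9.28% of all genes). By edgeR's quasi-likelihood test with Benjamini-Hochberg adjustment over all genes, 0 members and 0 genes (0%) had an adjusted p under 0.05. At an unadjusted p under 0.05, 11 members were lower (7.01% of all genes tested) and 0 higher (6.45%).

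DESeq2 called 4 members lower, AI607873, Ifi204, Oas2 and Trim30a, and 0 higher. Over all genes it called 1.47% lower and 0.686% higher. By the adjusted p in the authors' deposited table, AI607873 and Oas2 were lower (log2 fold changes -0.57 and -0.91, adjusted p of 0.0294 and 0.00774) and 0 members were higher. Of the genes tested here 1.26% were lower and 0.869% higher in the authors' deposited table.

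**Figure D1:**
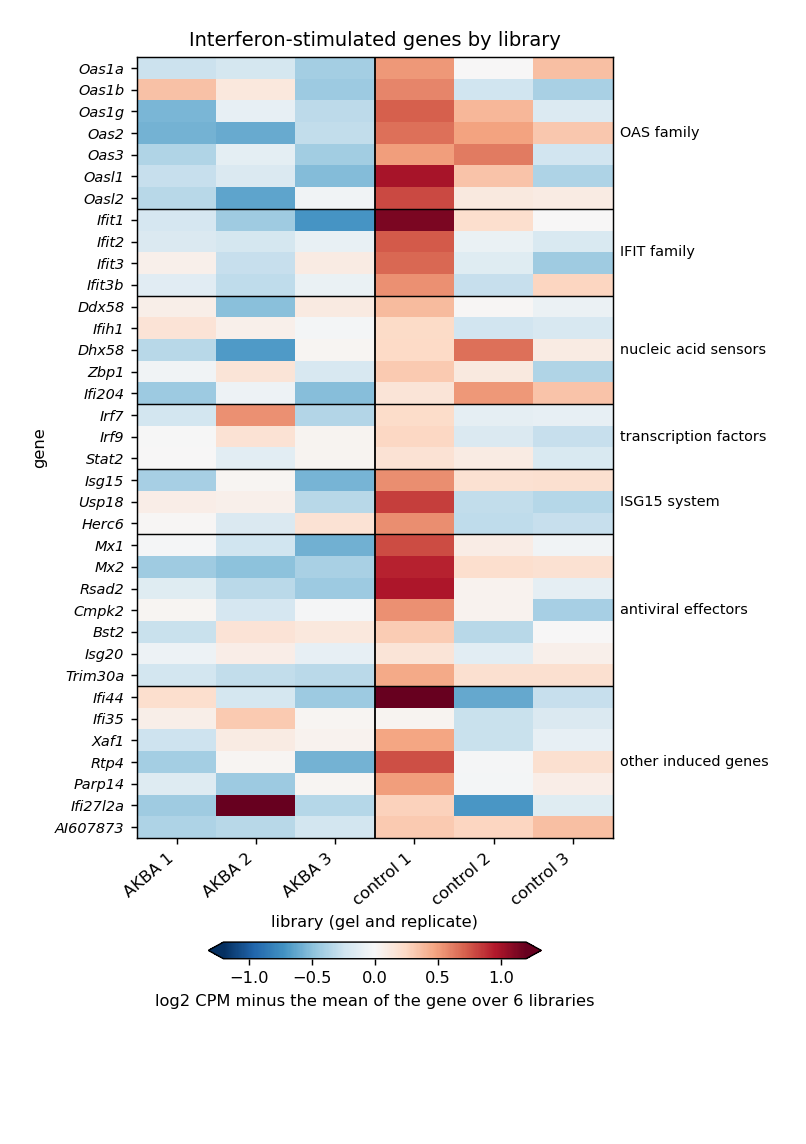
Each row is an interferon-stimulated gene, grouped by role, and each column a library; colour gives log2 CPM minus the mean of the gene over the 6 libraries. Control replicate 1 is the highest library for 29 of the 36 genes, while AI607873, Ifi204 and Oas2 are high in all 3 control libraries.

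Promoter sequences show what many members share in the DNA. RefSeq promoter windows of build GRCm38.p6 (250 bases before to 50 after the start of the gene) were matched for 25 of the 36 members. The core letters of the ISRE (GAAA, any 2 bases, GAAA), searched on both strands with overlapping matches allowed, occurred in the windows of 14 of these 25 members, and in 3.99% of the 27025 genes with a window. The core of the other interferon element, the gamma-activated site (TTC, any 3 bases, GAA), occurred in 5 of the 25 and in 9.55% of all genes. Of the 7 members with a window whose groups did not overlap 6 held the ISRE core, and of the other 18 members 8 held it. Oas2, Ifi204, Dhx58 and Mx2, whose groups did not overlap either, had no matched window and are not in these counts. A match is a description of letters and was not tested for binding. Whether the core goes with the difference between the gels was not tested either. The following stretches of 30 bases, 5′ to 3′ on the strand of the gene, show the core on either strand in capitals. They are from the 14 members that held the ISRE core, except Ddx58, Ifih1 and Stat2, and include members whose groups overlapped.
Oas1a: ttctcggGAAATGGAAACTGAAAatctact
Oas1g: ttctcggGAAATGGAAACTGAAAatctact
Oas3: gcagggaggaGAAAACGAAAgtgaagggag
Ifit1: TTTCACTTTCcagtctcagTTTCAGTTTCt
Ifit3: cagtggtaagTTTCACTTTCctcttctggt
Ifit3b: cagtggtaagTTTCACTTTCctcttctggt
Isg15: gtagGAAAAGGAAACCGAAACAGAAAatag
Bst2: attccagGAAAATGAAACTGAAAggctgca
Rsad2: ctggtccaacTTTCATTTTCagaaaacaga
Trim30a: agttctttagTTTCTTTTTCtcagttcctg
AI607873: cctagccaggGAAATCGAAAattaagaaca

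These stretches lie at chr5:120907523-120907552 for Oas1a, chr5:120887609-120887638 for Oas1g, chr5:120777715-120777744 for Oas3 and chr4:156200871-156200900 for Isg15, all on the minus strand. Those of Ifit1 (chr19:34640785-34640814), Ifit3 (chr19:34583363-34583392) and Ifit3b (chr19:34607759-34607788) lie on the plus strand. Those of Bst2 (chr8:71537580-71537609), Rsad2 (chr12:26456553-26456582), Trim30a (chr7:104465210-104465239) and AI607873 (chr1:173741831-173741860) are on the minus strand. Oas1a and Oas1g carry the same 30 letters, with 2 overlapping cores, as do Ifit3 and Ifit3b with 1 core in the stretch shown, and reads of such close copies can be shared, so the split of counts between them is uncertain. Isg15 carries 3 overlapping cores, which start 78 bases upstream of the gene. The 250 bases before the start of Isg15 (chr4:156200819-156201068, minus strand) are shown to place this cluster in its promoter.
Isg15 upstream: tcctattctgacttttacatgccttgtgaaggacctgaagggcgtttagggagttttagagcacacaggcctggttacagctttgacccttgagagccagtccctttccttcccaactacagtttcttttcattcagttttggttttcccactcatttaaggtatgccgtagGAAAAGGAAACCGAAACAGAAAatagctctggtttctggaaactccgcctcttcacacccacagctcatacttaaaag

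The OAS family was below the control level in each member, although by almost nothing in Oas1b. OAS enzymes respond to double-stranded RNA by making short chains of adenylates that switch on the RNA-cutting enzyme RNase L. All 7 had a log2 fold change below 0 (49.6% of all genes tested), with a median of -0.69. For 3 the groups did not overlap, against 9.1% of all genes tested. Without control replicate 1 the median was -0.49, 6 of the 7 were below 0, and Oas1b was at 0.38. Oas2 (chromosome 5, 120730333 to 120749853) was at 6.82, 6.64 and 8.27 CPM with AKBA gel (replicates 1 to 3) and at 16.1, 14.3 and 12.8 CPM with control gel. The highest AKBA library thus stayed below the lowest control library, and the log2 fold change was -0.99 ± 0.16 (SE), with an edgeR adjusted p of 0.331 and a DESeq2 adjusted p of 0.000541. Oas1a was at 3.19, 3.30 and 2.85 CPM against 5.52, 3.84 and 4.93 CPM, with no overlap (log2 fold change -0.61 ± 0.21).

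Oasl2, an OAS-like protein with ubiquitin-like domains, was at 7.996, 6.48 and 9.76 CPM against 17.6, 10.9 and 10.8 CPM (log2 fold change -0.69 ± 0.25). Control replicate 1 was its highest library, the other 2 control libraries lay just above the highest AKBA library, and the value without control replicate 1 was -0.42. The groups overlapped for Oas3 (-0.67 ± 0.29), Oas1g (-0.73 ± 0.33) and Oasl1, a brake on IRF7 translation (-0.80 ± 0.39, and -0.37 without control replicate 1). Oas1b, by contrast, was nearly level between the gels, at 3.73, 3.19 and 2.13 CPM against 4.43, 2.45 and 2.20 CPM, and its log2 fold change was -0.01 ± 0.35. C57BL/6 mice are known to carry a truncated Oas1b allele, linked to their susceptibility to flaviviruses, and GENCODE M21 lists the gene as a polymorphic pseudogene. Oas1b, Oas1g, Oas1a, Oas2 and Oas3 lie between positions 120730333 and 120907521 of chromosome 5, in one cluster.

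IFIT proteins bind foreign RNA, and Ifit1 blocks translation of RNA that lacks the cap methylation of the host. All 4 had a log2 fold change below 0 (49.6% of all genes tested), with a median of -0.39. Only for Ifit1 among them did the groups not overlap. Ifit1 (chromosome 19, 34640871 to 34650009) was at 3.48, 2.98 and 2.43 CPM with AKBA gel and at 8.90, 4.63 and 4.02 CPM with control gel (log2 fold change -0.98 ± 0.34, edgeR adjusted p = 0.339, DESeq2 adjusted p = 0.122). Control replicate 1 was 1.92 times the highest other library.

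Ifit2 was at 8.63, 8.40 and 9.12 CPM against 16.3, 9.17 and 8.53 CPM (-0.38 ± 0.26). Ifit3, the member of the family with the highest level per length (5.33 and 5.84 FPKM, AKBA and control mean of the deposited values), was at 9.76, 7.71 and 10.1 CPM against 15.1, 8.47 and 6.95 CPM (-0.15 ± 0.29). In both genes control replicate 1 was alone above all other libraries, and the remaining 5 overlapped. Ifit3b stood at a log2 fold change of -0.40 ± 0.27 with overlapping groups. Without control replicate 1 the value was -0.54 ± 0.25 for Ifit1, -0.01 ± 0.15 for Ifit2 and 0.26 ± 0.19 for Ifit3, and the median of the 4 was -0.098.

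Among the sensors of foreign nucleic acid, Ifi204 and Dhx58 had groups that did not overlap. Ifi204, a DNA-binding protein of the PYHIN family (chromosome 1, 173747293 to 173766943), was at 19.1, 24.8 and 18.2 CPM against 28.8, 37.3 and 32.8 CPM. Here control replicate 1 was the lowest of the control libraries, and the log2 fold change was -0.67 ± 0.16 (edgeR adjusted p = 0.331, DESeq2 adjusted p = 0.0339). Dhx58, which encodes the RNA helicase LGP2, was at 3.14, 2.44 and 4.05 CPM against 4.71, 6.33 and 4.26 CPM (-0.66 ± 0.26). It did not pass by either tool (edgeR adjusted p = 0.351, DESeq2 adjusted p = 0.235), and its highest AKBA library came close to its lowest control library.

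The related RNA helicases that signal to interferon differed little between the gels. Ddx58 (RIG-I) was at 20.0, 13.4 and 20.4 CPM against 24.6, 19.1 and 18.1 CPM (log2 fold change -0.20 ± 0.20, and -0.044 without control replicate 1), and Ifih1 (MDA5) stood at 18.8 ± 1.24 against 17.4 ± 3.25 CPM (SD, n = 3 each; 0.11 ± 0.16). Zbp1, a sensor of Z-form nucleic acid that can start necroptosis, was at 4.28 ± 0.525 against 4.50 ± 1.05 CPM (-0.07 ± 0.23). The groups overlapped for all 3 genes.

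The transcription factors of the pathway were close to level. Stat2 was at 35.0, 31.8 and 35.6 CPM against 39.2, 37.2 and 30.6 CPM (log2 fold change -0.06 ± 0.13), and its partner Irf9 at 32.8, 37.2 and 33.6 CPM against 38.9, 29.1 and 27.0 CPM (0.12 ± 0.16). Irf7, which amplifies interferon-α production, was at 11.8, 20.1 and 10.7 CPM against 16.0, 12.8 and 12.8 CPM (0.03 ± 0.25). The groups overlapped in each, and the median of the 3 was 0.03, or 0.16 without control replicate 1. Irf9 exons overlap those of Rnf31 on the same strand, so its reads cannot be fully told apart from that gene.

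Of the ISG15 system, only the modifier itself had groups that did not overlap. Isg15, the ubiquitin-like protein attached to other proteins after interferon, was at 1.72, 2.34 and 1.53 CPM against 3.43, 2.62 and 2.63 CPM (log2 fold change -0.64 ± 0.26, edgeR adjusted p = 0.355). Its promoter holds the cluster of 3 ISRE cores printed above. Usp18, the protease that removes ISG15 and blocks the interferon receptor, was at 3.48, 3.45 and 2.60 CPM against 5.95, 2.66 and 2.59 CPM (-0.23 ± 0.36). Herc6, the ligase for ISG15 in mice, was at 3.72 ± 0.467 against 3.82 ± 1.43 CPM (-0.04 ± 0.29). In Usp18 and Herc6 the other 2 control libraries lay within or below the range of the AKBA libraries, and without control replicate 1 their values were 0.28 and 0.32.

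Antiviral effectors were below the control level in 6 of 7 members (49.6% of all genes tested), with a median log2 fold change of -0.57. Without control replicate 1 they were below 0 in 4 of 7, with a median of -0.26. Trim30a, a TRIM protein that dampens Toll-like receptor signalling (chromosome 7, 104409025 to 104465193), was at 12.9, 12.2 and 12.01 CPM against 20.6, 17.2 and 17.2 CPM. The 2 groups were each tight and did not overlap, and the log2 fold change was -0.57 ± 0.13 (edgeR adjusted p = 0.331, DESeq2 adjusted p = 0.0399). Mx2, a GTPase that GENCODE M21 lists as a polymorphic pseudogene, was at 0.785, 0.744 and 0.809 CPM against 2.14, 1.27 and 1.25 CPM (-0.98 ± 0.31). Rsad2 encodes viperin, which makes a chain-terminating nucleotide, and was at 4.51, 3.99 and 3.66 CPM against 9.86, 5.15 and 4.65 CPM (-0.69 ± 0.31, and -0.26 without control replicate 1).

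Mx1, the GTPase that blocks influenza virus and is known to be defective in C57BL/6 mice, overlapped between the gels. It was at 4.32, 3.67 and 2.90 CPM against 7.57, 4.63 and 4.22 CPM (log2 fold change -0.59 ± 0.28, and -0.28 without control replicate 1). Bst2, or tetherin, which holds budding virus at the membrane, was the effector with the highest level per length (20.4 and 19.9 FPKM) and was at 12.6, 17.01 and 16.5 CPM against 18.8, 12.01 and 15.2 CPM (0.00 ± 0.20). Isg20, a nuclease (-0.06 ± 0.18), and Cmpk2, a nucleotide kinase near Rsad2 on chromosome 12 (-0.18 ± 0.26), also overlapped.

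The other induced genes included the member with the smallest p and the one with the largest spread. AI607873, named Ifi207 in GENCODE M21, is a PYHIN gene next to Ifi204 (chromosome 1, 173723427 to 173741747). It was at 33.9, 34.9 and 37.7 CPM with AKBA gel and at 54.6, 52.4 and 56.4 CPM with control gel. Neither group spread by more than a few CPM, the groups did not overlap, and the log2 fold change was -0.62 ± 0.10 (edgeR unadjusted p = 0.000273, adjusted p = 0.331, DESeq2 adjusted p = 0.00116). Another 3 PYHIN genes of that region, from a list of genes that are not members, were at -0.46 ± 0.18 (Mnda), -0.37 ± 0.27 (Ifi203) and -0.36 ± 0.20 (Ifi205). Only Mnda, named Ifi211 in GENCODE M21, had groups that did not overlap. Its value was 10.9 CPM in both the highest AKBA and the lowest control library. Exons of Ifi203 overlap those of Mndal on the same strand, so its reads cannot be fully told apart from that gene.

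Ifi27l2a, a small mitochondrial protein, had the highest level per length of all members (72.4 and 48.1 FPKM) and was at 18.3, 62.7 and 19.5 CPM against 29.997, 15.2 and 22.4 CPM. AKBA replicate 2 alone set its positive value of 0.57 ± 0.49, which was -0.25 without that library. Ifi35, a partner of NMI, was at 14.7, 17.3 and 14.1 CPM against 14.3, 11.6 and 12.4 CPM (0.27 ± 0.14). Parp14, an ADP-ribosyltransferase, was at 35.0 ± 5.55 against 45.6 ± 9.17 CPM (SD, n = 3 each; -0.38 ± 0.18), and Rtp4, a chaperone of G protein-coupled receptors, at 3.35 ± 0.750 against 5.33 ± 1.602 CPM (-0.67 ± 0.28). Xaf1, which opposes the apoptosis inhibitor XIAP, stood at -0.10 ± 0.24, and Ifi44 was at 1.37, 1.01 and 0.852 CPM against 3.14, 0.742 and 0.958 CPM (-0.58 ± 0.56). The groups overlapped in these 6 genes, and in Ifi44 only control replicate 1 was high. Without that library the value was -0.39 for Rtp4, -0.20 for Parp14, 0.35 for Ifi44 and 0.16 for Xaf1, and 3 of the 7 other induced genes were below 0.

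**Figure D2:**
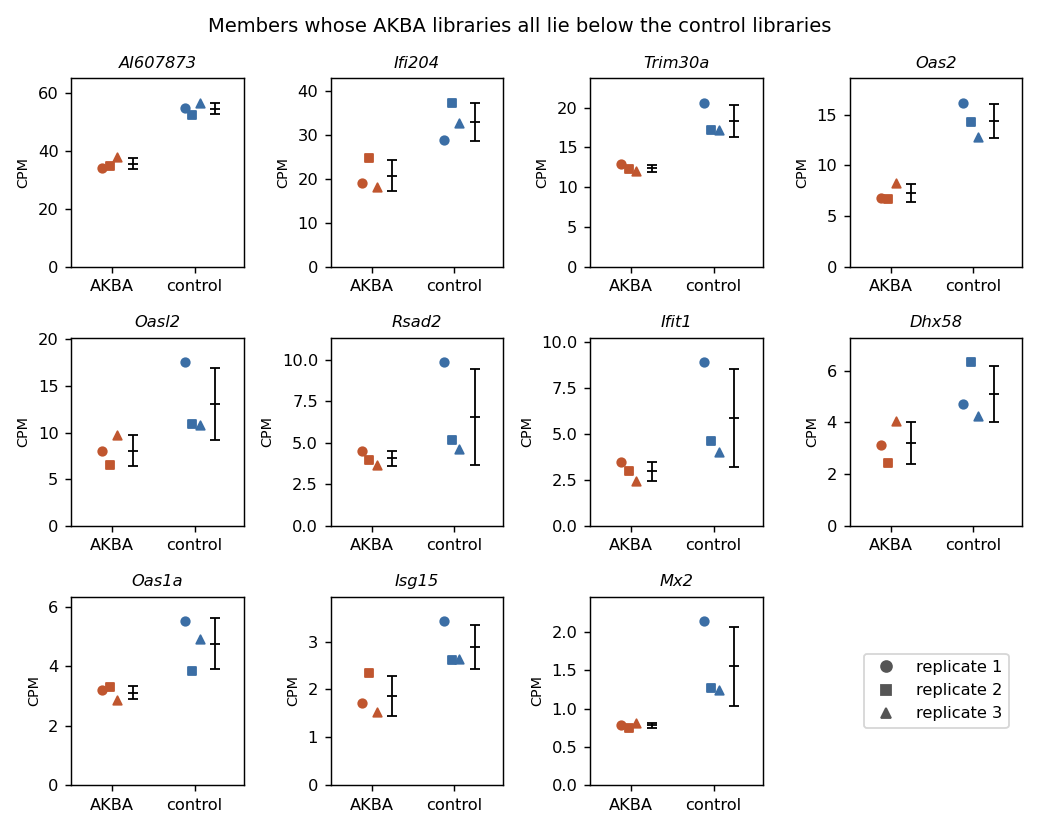
CPM of the 11 members whose AKBA libraries all lie below the control libraries; points are libraries (marker shape gives the replicate), the bar beside them the mean and SD, and each axis starts at 0. In Ifit1, Rsad2, Oasl2 and Mx2 control replicate 1 lies far above the other controls, whereas in AI607873, Ifi204 and Dhx58 it does not.

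Control replicate 1 set the difference of some members and not of others. In 11 members this library was over 1.5 times the highest of the other 5, up to 2.29 times in Ifi44. Of the 30 members below 0 with all libraries, 10 kept their value within a factor of 1.5 without this library, 10 moved nearer to 0 by more than that, and 10 turned above 0. The share of all genes tested at these cutoffs was not counted, so these counts have no background here. Those that turned from below to above 0 were Oas1b, Ifit3, Zbp1, Stat2, Usp18, Herc6, Cmpk2, Isg20, Ifi44 and Xaf1. With 3 against 2 libraries, 11 members lay wholly below the control libraries (18.3% of all genes tested) and 4 wholly above (18.8%). The 4 were Ifih1 (0.29 ± 0.13), Irf9 (0.31 ± 0.12), Herc6 (0.32 ± 0.22) and Ifi35 (0.37 ± 0.15). The 11 are those named before, since leaving out a library cannot make such groups overlap.

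The 10 members that stayed within the factor of 1.5 included Oas2 (log2 fold change without control replicate 1 of -0.89 ± 0.16), Ifi204 (-0.75 ± 0.17), Dhx58 (-0.71 ± 0.29), AI607873 (-0.61 ± 0.11) and Trim30a (-0.47 ± 0.12). The others were Mx2 (-0.67 ± 0.29), Oas3 (-0.57 ± 0.33), Oas1a (-0.49 ± 0.23), Oas1g (-0.49 ± 0.35) and Isg15 (-0.49 ± 0.29). Those that moved nearer to 0 were Oasl1, Oasl2, Ifit1, Ifit2, Ifit3b, Ddx58, Mx1, Rsad2, Rtp4 and Parp14. At an unadjusted p under 0.05, 4 members were then lower, Oas2, Ifi204, AI607873 and Trim30a (9.12% of all genes tested), and 1 was higher, Irf9 (8.95%). By edgeR 0 members passed over all genes, while 14 other genes did. Why this library was high was not tested.

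**Figure D3:**
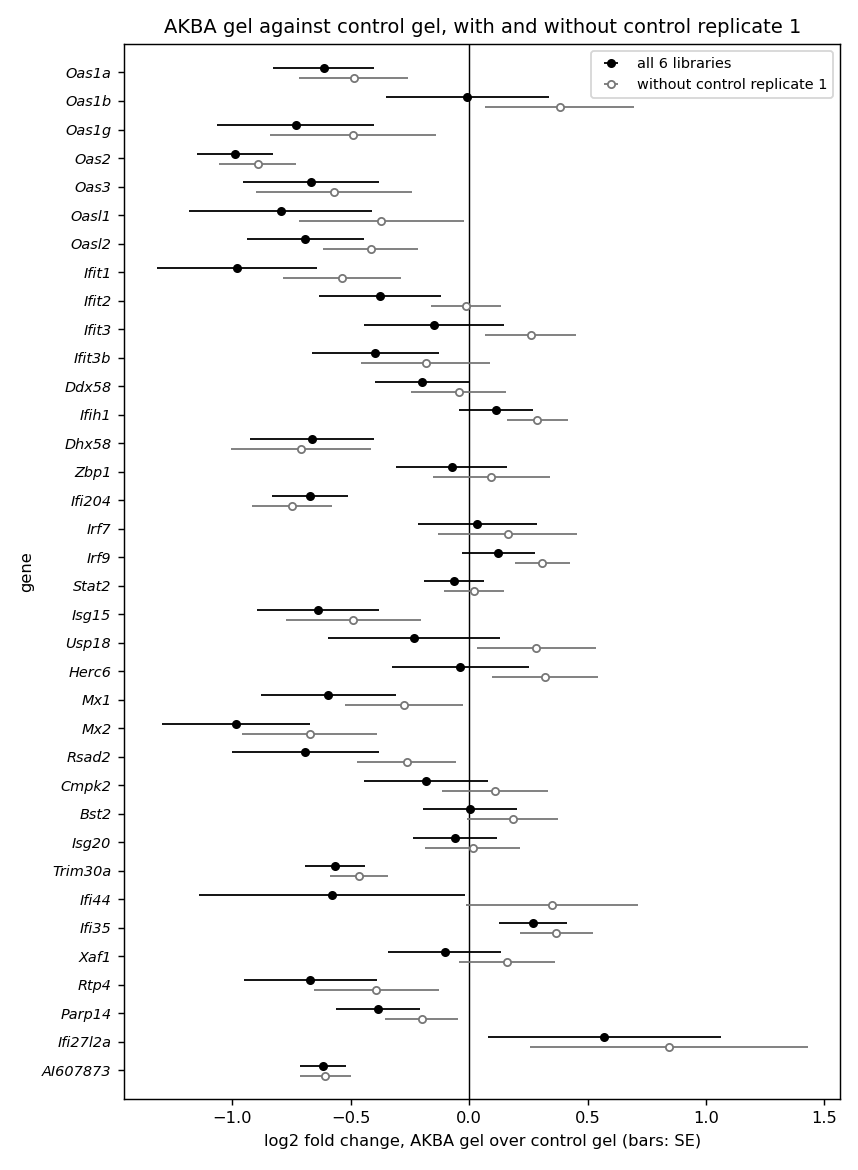
Log2 fold change of each member (AKBA gel over control gel) with its SE, for all 6 libraries (filled) and without control replicate 1 (open). The values of Oas2, Ifi204, Dhx58, AI607873 and Trim30a move little, while 10 genes cross 0.

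Interferon genes themselves were at or near 0 counts. Of 9 type I and type III interferon genes looked at, none had more than 1 count over the 6 libraries: Ifna1, Ifna2, Ifna4, Ifna5, Ifnb1, Ifne, Ifnl2 and Ifnl3 had 0, and Ifnk had 1 count in control replicate 3. Ifng had 0 to 3 counts in a library. A count of 0 allows up to 0.132 to 0.157 CPM, so lower levels were not detectable at this depth.

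Among the 12 receptor and signalling genes the median log2 fold change was -0.05. At an unadjusted p under 0.05, 0 were lower (7.01% of all genes tested) and 1 was higher (6.45%). That gene was Ifnlr1, the interferon-λ receptor chain found mainly on epithelial cells, at 17.9, 20.7 and 16.8 CPM against 12.5, 11.7 and 8.10 CPM. The groups did not overlap (0.78 ± 0.19, edgeR adjusted p = 0.331, DESeq2 adjusted p = 0.0310). Jak2 (-0.31 ± 0.14), Ifnar2 (-0.28 ± 0.15), Ifngr1 (-0.24 ± 0.12) and Jak1 (-0.16 ± 0.11) did not pass by either tool. Of the 15 upstream sensors and adaptors 4 were lower (7.01% of all genes tested) and 0 higher (6.45%) at an unadjusted p under 0.05. They were Tmem173, the DNA-signalling adaptor STING (-0.63 ± 0.20), Tlr9, a receptor for DNA (-0.60 ± 0.19), and the adaptors Myd88 (-0.38 ± 0.13) and Traf3 (-0.37 ± 0.10), each with groups that did not overlap. The most abundant by CPM in that list, Trim25 and Irf3, were at 0.06 ± 0.16 and 0.04 ± 0.11.

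Among negative regulators of the pathway, Socs1 and Socs3 were lowest of the controls in control replicate 1. Socs1, the main inhibitor of JAK kinases after interferon, was at 4.42, 5.21 and 4.73 CPM against 5.90, 9.13 and 11.9 CPM (log2 fold change -0.91 ± 0.26). Socs3 was at 25.02, 24.98 and 20.5 CPM against 19.5, 63.4 and 45.8 CPM (-0.87 ± 0.37, and -0.48 without control replicate 2). In both, control replicates 2 and 3 were the highest of the 6 libraries, and only the Socs1 groups did not overlap. The phosphatase Ptpn1 was at -0.39 ± 0.15, Ptpn2 at -0.18 ± 0.12 and Pias1 at -0.02 ± 0.10. Of the 7 genes 3 were lower (7.01% of all genes tested) and 0 higher (6.45%) at an unadjusted p under 0.05.

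Further interferon-induced genes that are not members were counted in the same way. Of 28 other type I induced genes 8 were lower (7.01% of all genes tested) and 0 higher (6.45%) at an unadjusted p under 0.05. Their median log2 fold change was -0.28. Samhd1, which depletes the nucleotides viruses need, was at 136, 121 and 142 CPM against 182, 185 and 210 CPM (log2 fold change -0.52 ± 0.12, edgeR adjusted p = 0.331, DESeq2 adjusted p = 0.0134). Slfn5 (-0.63 ± 0.17) and the membrane proteins Ifitm1 (-0.76 ± 0.21) and Ifitm2 (-0.42 ± 0.13) also had groups that did not overlap.

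The 19 genes induced mainly by interferon-γ, GTPases and antigen-processing genes, had a median of -0.07. At an unadjusted p under 0.05, 0 of them were lower (7.01% of all genes tested) and 1 was higher (6.45%). That one was Tap1, a peptide transporter, at 62.9, 78.6 and 61.6 CPM against 55.8, 45.1 and 41.1 CPM (0.52 ± 0.15), whose exons overlap those of Psmb9 on the opposite strand. Psmb9 was at 0.41 ± 0.22, Nlrc5 at 0.03 ± 0.14, Gbp5 at -0.34 ± 0.24 and Ifi47 at -0.49 ± 0.21. Control replicate 1 was the highest library for 14 of these 19 genes and for 16 of the 28 other type I induced genes. It was the highest for 12.3% of all genes tested, so it was high beyond the members.

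**Figure D4:**
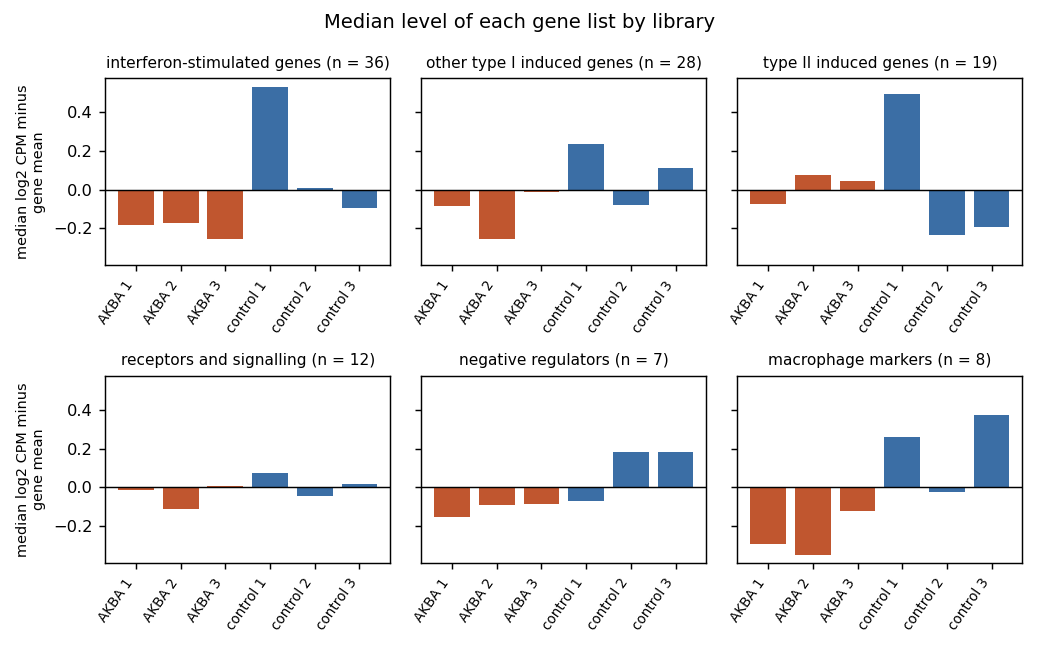
Bars give the median, over the genes of a list, of log2 CPM minus the mean of the gene, for each library. For the interferon-stimulated genes control replicate 1 is at 0.53 and the 3 AKBA libraries are between -0.26 and -0.17; the type II induced genes share the high control replicate 1 but not the low AKBA libraries, and the macrophage markers are highest in control replicate 3.

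The macrophage, endothelial and T cell markers tested also had log2 fold changes below 0. Of 8 macrophage markers 8 had a log2 fold change below 0 (49.6% of all genes tested), with a median of -0.35. At an unadjusted p under 0.05, 4 of them were lower (7.01% of all genes tested). Their summed level was 1527 to 1659 CPM under AKBA gel and 1702 to 2344 CPM under control gel, and 0 of them were at 0. The 3 control libraries were at 2156, 1702 and 2344 CPM (replicates 1 to 3). Endothelial markers summed to 165 to 302 CPM against 287 to 379 CPM and T cell markers to 106 to 145 CPM against 146 to 202 CPM. Thy1 gave most of the T cell sum, at 82.9 to 108 CPM against 99.9 to 173 CPM. In each of the 6 T cell markers tested the groups overlapped. Of the 6 keratinocyte markers 3 had a log2 fold change below 0 and 3 above. At an unadjusted p under 0.05, 1 was lower (7.01% of all genes tested) and 2 higher (6.45%). Krt14 was at -1.22 ± 0.45, with groups that did not overlap (edgeR adjusted p = 0.343, DESeq2 adjusted p = 0.0399). Lor was at 1.27 ± 0.42 (edgeR adjusted p = 0.336, DESeq2 adjusted p = 0.0311) and Krt10 at 0.95 ± 0.38, both with overlapping groups. The part of these cell types in the lower values of Oas2, Ifi204, AI607873, Trim30a and Dhx58 was not tested.

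Plasmacytoid dendritic cells are the main makers of interferon-α, and their 5 markers summed to 6.00 to 7.55 CPM against 5.19 to 8.32 CPM, with 2 of 5 above the low-count filter and 0 at 0. Langerhans and dendritic cell markers summed to 845 to 1340 CPM against 852 to 1008 CPM, highest in AKBA replicate 2, the library that was also high in Ifi27l2a and Irf7. Cd74, H2-Aa and H2-Ab1 made up most of that sum. Cd207 of the same list was higher under AKBA gel, at 10.3, 12.5 and 7.24 CPM against 5.81, 4.58 and 2.83 CPM. Its log2 fold change was 1.18 ± 0.31 (edgeR adjusted p = 0.331, DESeq2 adjusted p = 0.0223). It was the only 1 of the 6 genes whose groups did not overlap. In neutrophil markers 1 of 6, the defining Ly6g, was at 0 counts in all 6 libraries, and the list summed to 25.9 to 39.8 CPM against 44.2 to 51.2 CPM. Ngp had 0 to 2 counts in a library and Retnlg 1 to 20, both under the low-count filter. Of the 3 neutrophil markers above the filter only Csf3r had groups that did not overlap. The sum of the skeletal muscle markers was highest in control replicate 1, at 5645 CPM against 2540 to 3814 CPM in the other 5 libraries. Myh4 stood at 2229 CPM in control replicate 1 and at 42.7 to 748 CPM in the others. Of the 4 muscle genes 2 were highest in that library, and Acta1 and Mylpf were highest in AKBA replicate 2. Fibroblast markers also summed highest in control replicate 1, at 35250 CPM. The part of either list in the high interferon-stimulated genes of that library was not tested.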

How the data were processed

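RNA sequencing of 6 libraries of mouse epidermis was analysed from the table the authors deposited. Per the file headers it gives a whole-number count and an FPKM value for each gene and library, and the authors' own log2 fold change, p-value and adjusted p-value, whose method is not stated there. Build GRCm38, RSEM, CASAVA 1.8 and edgeR are named, per the submitters' processing notes, without the role of each. Whether counting used strand is not stated, and exons of 9 members overlap another gene. All genes were fitted together with edgeR 4.0.16 in R 4.3.3: default low-count filter, TMM scaling, quasi-likelihood F test, 2-sided, Benjamini-Hochberg adjustment, threshold 0.05. A standard error is the log2 fold change divided by the square root of F. DESeq2 1.42.0 was run on genes with at least 10 counts. FPKM served only to compare levels between genes. Gene positions come from GENCODE M21 (GRCm38). A listed gene with 2 rows, Gbp6, was left out.

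The members, lists and tests were chosen with earlier results of these data known. Library values are given for members whose groups did not overlap, for the 2 members of each role with the highest FPKM, for Oas1b and Mx1, and for some others chosen after their values were seen. Of each further list the 4 genes with the smallest p and the 2 with the highest CPM are named; Ifi203, Ifi205 and Mnda were added after their values were seen. One gene of the pathway is not reported here. No library was a copy of another: within a group, chi-square of the counts per degree of freedom was 28.3 or more. The fit was tested on simulated data. Alternatives were other scaling, filters, DESeq2, the replicate number as a block, and each library left out; leaving out AKBA replicate 2 and control replicate 3 together was added after seeing the data.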

Additional observations from a re-analysis of the deposited data

How the results depend on the processing

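With DESeq2 in place of edgeR 318 genes and 4 members (Oas2, Ifi204, Trim30a and AI607873) were called instead of 0, as were Ifnlr1 and Samhd1. The stricter filter left 18 members tested, with a median log2 fold change of -0.16, 12 below 0 and 5 with groups apart (lower in 9.62% of all genes then tested). Leaving out each library in turn gave 0 to 14 genes called by edgeR, a median log2 fold change of the members between -0.50 and -0.11, and 12 to 18 members with groups apart in either direction. Of these 11 to 18 were lower, against 11.7% to 18.3% of all genes tested in the same settings and 9.1% with all libraries. Without control replicate 1 the 14 genes and the -0.11 were reached, with 11 members apart lower and 4 higher. Without AKBA replicate 2 and control replicate 3 together, 21 members had groups apart, all lower, where 15.4% of all genes did.

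Several values changed sign with a library left out, those of Ifi44 (-0.58 with all libraries) and Ifi27l2a (0.57) among them. Their log2 fold changes ranged over -0.19 to 0.38 for Oas1b, -0.36 to 0.26 for Ifit3, -0.24 to 0.094 for Zbp1, -0.30 to 0.22 for Irf7, -0.16 to 0.019 for Stat2, -0.44 to 0.28 for Usp18 and -0.20 to 0.32 for Herc6. They ranged over -0.38 to 0.11 for Cmpk2, -0.15 to 0.18 for Bst2, -0.14 to 0.016 for Isg20, -0.94 to 0.35 for Ifi44, -0.26 to 0.16 for Xaf1 and -0.25 to 0.86 for Ifi27l2a. Outside the members they ranged over -0.069 to 0.015 for Pias1, -0.074 to 0.18 for Trim25, -0.016 to 0.12 for Irf3 and -0.078 to 0.17 for Nlrc5. Without those 2 libraries (AKBA replicate 2, control replicate 3) the value was -0.35 for Irf7, -0.034 for Irf9, -0.078 for Bst2, -0.25 for Ifi27l2a, 0.037 for Pias1 and -0.022 for Nlrc5. Bst2 was at -0.0019 with DESeq2 size factors and at -0.0028 with the DESeq2 test. The cause was not tested.

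With the replicate number as a block the median of the members was -0.37, 0 genes were called, and Oas1b was at 0.025, Irf7 at -0.013 and Herc6 at 0.0091. Same-numbered libraries did not deviate together (correlations 0.0724, 0.0185 and -0.327), so the numbers were not taken to pair the samples. Members near 1 CPM, such as Mx2, Oas1g and Ifi44, rest on few counts.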
